A study of Mus musculus with 2 samples.

Results

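A set of 10 genes that hold endothelial cells together or present them to leukocytes was examined in liver nonparenchymal cells (NPCs) of mice with nonalcoholic steatohepatitis (NASH) and of control mice. The genes were *Pecam1*, *Cdh5*, *Cdh13*, *Esam*, *Icam1*, *Icam2*, *Mcam*, *Cldn5*, *Jam2* and *Cd34*. They were chosen by name, with earlier results of these data known, as 10 of the 16383 genes analysed, and all 10 were found in both libraries. Counts of them beside the share of all genes are therefore descriptions only. The study used male C57BL/6 mice that were 8 weeks old at the start. NASH mice ate a diet deficient in methionine and choline (MCD) for 6 weeks, a model that brings steatosis and inflammation without obesity, and control mice ate chow. Liver tissue of 3 mice per diet was digested, pooled by diet and captured on the BD Rhapsody platform, a microwell system that counts transcripts by unique molecular identifiers (UMIs). There was thus 1 control and 1 NASH library. Every interval below is a 95% interval of counting error and does not cover the spread between mice, and no test between diets could be made.

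Endothelial cells are joined by adherens junctions, in which VE-cadherin of neighbouring cells binds itself and is tied to the actin skeleton by catenins, and by tight junctions built of claudins and junctional adhesion molecules. Leukocytes leave the blood by holding on to endothelial ICAM proteins through their integrins and passing between the cells at junctions that contain PECAM-1. Liver sinusoidal endothelial cells (LSECs) are perforated by fenestrae, lie on little or no basement membrane and form a looser barrier than vascular endothelial cells (VECs) of the central and portal veins. Acquisition of vascular features such as CD34 by LSECs is known as capillarization and accompanies liver fibrosis.

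Cells with at least 500 UMIs and 200 genes were kept, which were 4209 of 4336 control and 3710 of 3893 NASH cells. They were clustered without the 10 genes and without other listed junction and adhesion genes, so that neither the 10 genes nor these partners helped to define a cell class. Clusters were named by marker genes, as cells that resemble a type. LSEC-like cells numbered 1272 from control and 1572 from NASH mice, with all 17 LSEC markers detected in both. The central VEC-like class, led by *Fxyd6*, *Bmp4* and *Fbln2*, held 82 and 252 cells, with 11 of 11 venous markers detected. The portal VEC-like class, led by *Nrg1*, *Adgrg6* and *Jag1*, held 61 and 77 cells, with 11 of 12 markers detected. A marker counted as detected from 1 UMI in a class, so these counts do not tell classes apart. Control LSEC-like cells also had 12 of 12 portal and 11 of 11 venous markers. Portal markers summed to 6820 CPM in control and 9331 CPM in NASH portal VEC-like cells, against 1657 and 1895 CPM in LSEC-like cells. In central VEC-like cells they summed to 5004 CPM in control and 1515 CPM in NASH cells. This list thus set the portal class less apart from the central class in the control. LSEC markers summed to 34799 and 35046 CPM in control and NASH portal VEC-like cells, against 64399 and 58774 CPM in LSEC-like cells. The libraries shared 21 cell barcodes. The NASH table has no header, so its columns took the gene names of the control header in sequence. Across 12 classes, the levels of each of the 10 genes in both libraries correlated at Pearson's r = 0.671 (*Icam1*) to 0.983 (*Esam*) in this order. A doublet caller marked 52 control cells and 3 NASH cells. Since 3 cells are 0.0809% of the library, it was taken not to have worked in NASH cells, which was not checked further, and doublets were kept.

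The genes lie on 5 chromosomes of the mouse genome GRCm38, and 2 pairs share a gene family. VE-cadherin (*Cdh5*, chr8:104101625-104144511, plus strand) and T-cadherin (*Cdh13*, chr8:118283733-119324921, plus strand) are both cadherins, though T-cadherin is held in the membrane by a lipid anchor and has no tail for catenins. *Icam1* (chr9:21015985-21028817, plus strand) and *Icam2* (chr11:106377656-106388075, minus strand) encode ligands of the leukocyte integrin LFA-1. *Icam2* lies on the same chromosome as *Pecam1* (chr11:106654217-106750628, minus strand). *Esam* (chr9:37528078-37538319, plus strand) and *Jam2* (chr16:84774123-84825928, plus strand) encode immunoglobulin proteins of the tight junction, and *Cldn5* (chr16:18776847-18778262, plus strand) encodes the claudin that seals endothelial tight junctions. *Mcam* (chr9:44134469-44142727, plus strand) encodes CD146, and *Cd34* (chr1:194938819-194961279, plus strand) encodes a sialomucin of vascular endothelium and blood progenitors.

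RefSeq promoter sequences (GRCm38.p6) were at hand for 4 of the 10 genes, *Icam1*, *Mcam*, *Cldn5* and *Cd34*. The 250 bases before the transcription start are shown for 3 of them, because *Cldn5* and *Cd34* were the genes that were lower in NASH LSEC-like cells and *Icam1* had its highest level outside the endothelium in both libraries. All are on the plus strand, at chr16:18776597-18776846 (*Cldn5*), chr1:194938571-194938820 (*Cd34*) and chr9:21015690-21015939 (*Icam1*). Capitals mark matches, on either strand, to 1 of 4 motifs searched, which were GGGTGNGG of KLF factors, CNGGAAG of ETS factors, GGNNNTTCC of NF-kB and TGANTCA of AP-1.
Cldn5: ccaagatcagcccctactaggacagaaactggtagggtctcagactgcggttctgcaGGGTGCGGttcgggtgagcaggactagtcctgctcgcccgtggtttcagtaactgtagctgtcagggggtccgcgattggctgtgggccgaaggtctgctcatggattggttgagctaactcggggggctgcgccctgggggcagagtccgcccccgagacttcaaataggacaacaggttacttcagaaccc
Cd34: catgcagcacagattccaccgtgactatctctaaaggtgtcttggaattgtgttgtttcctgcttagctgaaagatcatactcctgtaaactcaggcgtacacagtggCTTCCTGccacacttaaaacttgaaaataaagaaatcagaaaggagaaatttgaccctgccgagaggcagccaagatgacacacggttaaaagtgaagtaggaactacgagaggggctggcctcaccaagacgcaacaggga
Icam1: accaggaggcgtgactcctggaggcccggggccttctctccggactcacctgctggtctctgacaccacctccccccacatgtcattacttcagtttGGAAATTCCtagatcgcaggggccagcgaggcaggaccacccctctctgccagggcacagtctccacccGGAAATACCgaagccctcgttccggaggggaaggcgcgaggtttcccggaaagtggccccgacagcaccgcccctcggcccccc

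The *Icam1* promoter held 2 matches to the NF-kB motif, which begin 153 and 84 bases before the start, and 15.7% of 32851 RefSeq promoters of this length held at least 1. The *Cldn5* promoter held 1 KLF match at 193 bases, as 14.9% of all promoters did, and the *Cd34* promoter 1 ETS match at 142 bases, as 26.6% did. The matched stretches did not overlap. No AP-1 match was found in the 4 promoters, against 6.75% of all, and the *Mcam* promoter held none of the 4 motifs. These matches describe the letters of the window and do not show binding.

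Among the 12 endothelial and leukocyte classes, the class with the highest level was an endothelial one in both libraries for 8 of the 10 genes. Stellate-like, cholangiocyte-like, cycling, erythroid-like and unnamed clusters were not in this comparison. The exceptions were *Icam1*, which was highest in natural killer (NK) and ILC1-like cells of the control and in neutrophil-like cells of the NASH library, and *Cd34*, which was highest in central VEC-like cells of the control and in cDC-like (conventional dendritic) cells of the NASH library. Levels are UMIs of a gene summed over the cells of a class, as CPM of all UMIs of that class in the 16383 genes analysed. They are not scaled to gene length, so that each gene is compared only with itself across classes and diets.

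**Figure D1:**
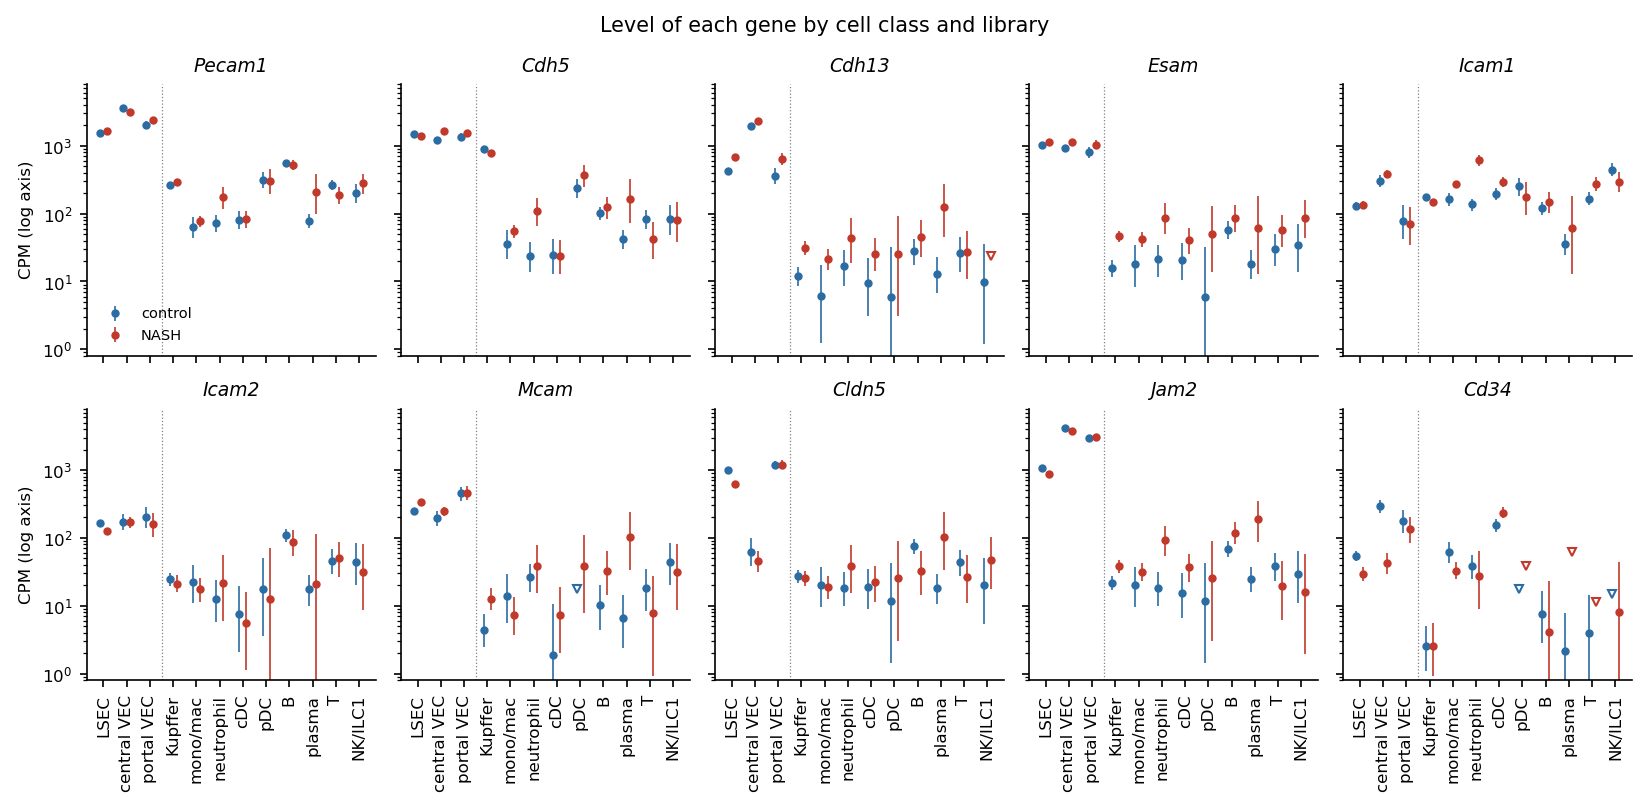
Level of each of the 10 genes (CPM, log axis) by cell class, with points for the control and NASH library and bars for the 95% counting interval, and with open triangles at the level of 3 UMIs where no UMI was found. For 8 genes the highest points of both libraries lie among the endothelial classes left of the dotted line, and *Icam1* and *Cd34* also reach high levels in leukocytes.

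PECAM-1 is the CD31 antigen, whose gene the study used together with *Vegfr-3* to recognise endothelial clusters. *Pecam1* stood at 1536 CPM in control and 1665 CPM in NASH LSEC-like cells, at 3576 and 3110.1 CPM in central VEC-like cells and at 2058 and 2425 CPM in portal VEC-like cells. *Cdh5* was more even, at 1483 and 1394 CPM in LSEC-like, 1233 and 1669.7 CPM in central and 1352 and 1523 CPM in portal VEC-like cells. Cells of all 3 endothelial classes thus carried the transcripts of VE-cadherin at similar levels, and the order of the 3 classes for this gene was not the same in both libraries.

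The largest difference between the endothelial classes was that of *Cldn5*. It was at 999 CPM (959 to 1040, 2386 UMIs) in control LSEC-like cells and 1181 CPM (1021 to 1360, 194 UMIs) in control portal VEC-like cells, but at 62.8 CPM (37.8 to 98.1, 19 UMIs) in control central VEC-like cells. In the NASH library the values were 629 CPM in LSEC-like, 1199.7 CPM in portal and 45.1 CPM in central VEC-like cells. The central class was lowest in both libraries, by a factor of 15.5 in control cells and 13.8 in NASH cells against LSEC-like cells (log2 ratio -3.95, -4.73 to -3.35, and -3.78, -4.34 to -3.31). Against portal VEC-like cells the factors were 18.4 and 26.3.

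*Jam2*, which encodes the JAM-B protein of tight junctions, had its highest level in the central class. It stood at 1074 and 877 CPM in control and NASH LSEC-like cells, at 2941 and 3085 CPM in portal and at 4171 and 3815 CPM in central VEC-like cells. The log2 ratio of central to LSEC-like levels was 1.96 (1.86 to 2.06) in control cells and 2.12 (2.04 to 2.20) in NASH cells, and that of portal to LSEC-like levels was 1.45 (1.31 to 1.59) and 1.82 (1.67 to 1.96). *Esam*, another tight junction gene, was at 1018 and 1145 CPM in LSEC-like, 919 and 1148 CPM in central and 798 and 1035 CPM in portal VEC-like cells, and no pair of classes lay 1.5 times apart in both libraries.

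T-cadherin marked the central side. *Cdh13* was at 430.3 CPM (404 to 457) in control LSEC-like, 359 CPM (273.5 to 463) in portal and 1963 CPM (1808 to 2128) in central VEC-like cells. In the NASH library the values were 678, 641 and 2311 CPM. The central to LSEC-like log2 ratio was 2.19 (2.04 to 2.34) in control cells and 1.77 (1.67 to 1.87) in NASH cells, and LSEC-like and portal VEC-like levels did not differ beyond their counting intervals.

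Among the leukocyte ligands, *Icam1* was highest in the central class of the endothelium. It stood at 304 and 388 CPM in central, 131 and 135 CPM in LSEC-like and 79.2 and 69.8 CPM in portal VEC-like cells, the last from 13 and 11 UMIs, with intervals that overlapped those of LSEC-like cells. *Icam2*, which endothelium carries without stimulation, was at 165 and 125 CPM in LSEC-like, 172 and 169.6 CPM in central and 201 and 159 CPM in portal VEC-like cells, with overlapping intervals between classes in the control. *Mcam* stood at 451 and 457 CPM in portal VEC-like cells, against 249 and 336 CPM in LSEC-like and 195 and 245 CPM in central VEC-like cells, and the intervals of portal (358 to 576) and LSEC-like cells (312 to 361) touched in the NASH library. *Cd34* was lower in LSEC-like cells, at 54.0 and 29.4 CPM, than in portal VEC-like cells, at 177 and 133 CPM.

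Counted by size, 5 of the 10 genes lay at least 1.5 times apart between central VEC-like and LSEC-like cells in both libraries, 4 higher (*Pecam1*, *Cdh13*, *Icam1*, *Jam2*) and 1 lower (*Cldn5*), against 17.5% of 6623 genes with at least 50 UMIs (9.81% higher, 7.66% lower). Between portal VEC-like and LSEC-like cells 3 of 10 did (*Jam2* and *Cd34* higher, *Icam1* lower), against 14.1% of 6373 genes (7.48% higher, 6.64% lower). The limit of 50 UMIs was over both classes together, and *Icam1* had few portal UMIs, with intervals that overlapped those of LSEC-like cells. Between central and portal VEC-like cells 4 of 10 did (*Cdh13* and *Icam1* higher, *Mcam* and *Cldn5* lower in central), against 15.8% of 4439 genes (9.12% higher, 6.65% lower).

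Central VEC-like cells were deeper than LSEC-like cells, with medians of 3281.5 and 2649 UMIs against 1603 and 1231, so the share of cells with each gene was also computed after each cell had been thinned to 1000 UMIs. This left 978 and 1029 LSEC-like cells, with 294 and 543 shallower ones left out, 79 and 249 central and 60 and 74 portal VEC-like cells. *Cldn5* was then found in 59.0% (55.8 to 62.1) of control and 38.0% (35.0 to 41.0) of NASH LSEC-like cells, in 68.3% and 60.8% of portal and in 8.9% (3.6 to 17.4) and 4.0% (1.9 to 7.3) of central VEC-like cells. Without thinning the LSEC-like shares were 69.9% and 45.5%. *Jam2* was found in 54.7% and 51.5% of LSEC-like, 91.1% and 93.2% of central and 83.3% and 89.2% of portal VEC-like cells. At 1000 UMIs 4 of the 10 genes separated central VEC-like from LSEC-like cells with intervals apart in both libraries, *Cdh13*, *Icam1* and *Jam2* with the larger and *Cldn5* with the smaller share of central cells. The set depended on the depth chosen: at 500 UMIs, which kept every cell, *Icam1* no longer separated control cells (8.5% of central and 6.1% of LSEC-like cells), while *Pecam1* did so in both libraries (81.7% and 51.4% in control cells, 73.8% and 53.4% in NASH cells).

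**Figure D2:**
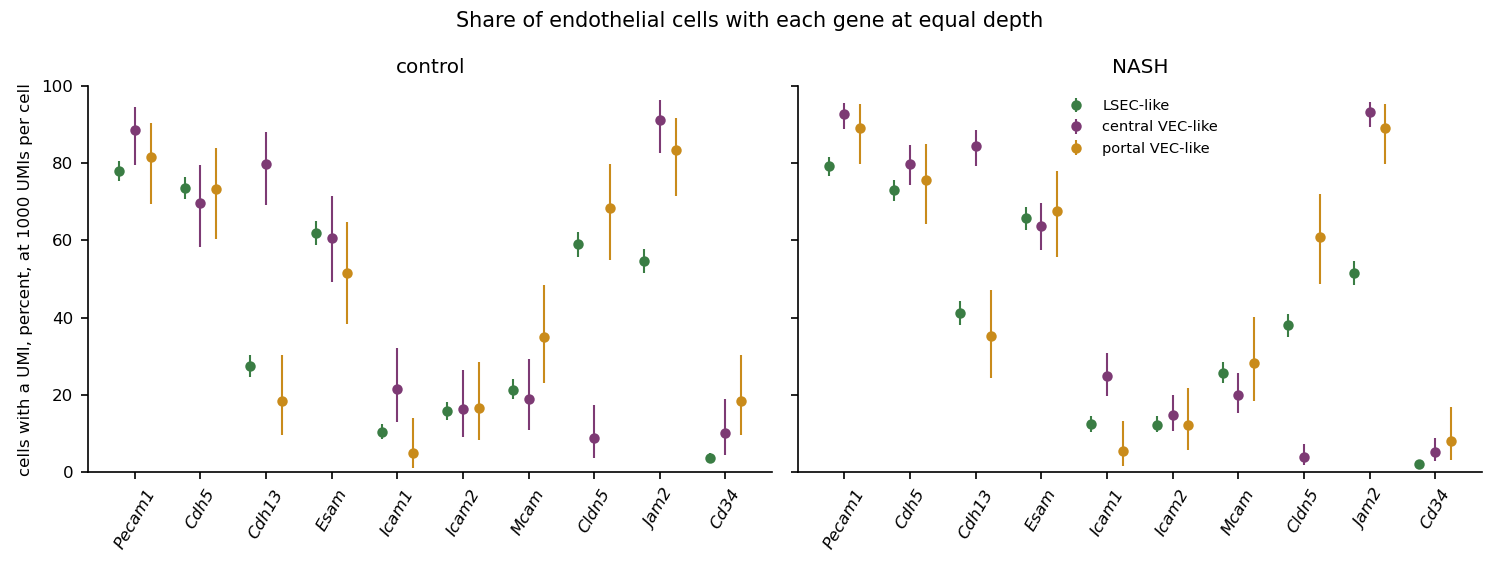
Percent of cells in which each gene was found, that is with a UMI, in the 3 endothelial classes after thinning to 1000 UMIs per cell, control left and NASH right, with 95% binomial intervals. In central VEC-like cells *Cldn5* is at 8.9% and 4.0%, below the other endothelial classes of the same library, and *Cdh13* at 79.7% and 84.3%, above them.

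Many endothelial cells carried several of the genes at once. At 1000 UMIs, LSEC-like cells held a median of 4 of the 10 genes in both libraries and central and portal VEC-like cells a median of 5, whereas Kupffer cell-like cells held 1. *Pecam1* and *Cdh5* were found together in 58.1% of LSEC-like cells of either library, in 65.8% and 73.5% of central and in 60.0% and 68.9% of portal VEC-like cells. None of the 10 genes was found in 0.61% of control and 0.19% of NASH LSEC-like cells.

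The LSEC-like cells formed 2 clusters, numbered 0 (770 control and 736 NASH cells, led by *Rab3b*, *Il13ra2* and *Lyve1*) and 1 (502 and 836 cells, led by *Gm10600*, *Nexn* and *Dll4*). Of the 10 genes, *Cdh13* alone differed by at least 1.5 times between them in both libraries, with a log2 ratio of cluster 0 to 1 of 0.93 (0.67 to 1.20) in control cells and 1.07 (0.90 to 1.25) in NASH cells. Of all 6268 genes tested, 2.09% were higher and 2.44% lower in cluster 0. *Mcam* leaned the other way, at -0.52 (-0.78 to -0.25) and -0.41 (-0.62 to -0.19).

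Comparison of the diets asks whether junction and adhesion genes change in NASH endothelium. In LSEC-like cells *Cldn5* and *Cd34* were lower and *Cdh13* was higher in NASH cells by at least 1.5 times, which is 3 of 10 genes against 10.3% of 6268 genes tested, of which 4.56% were higher and 5.7% lower. The other 7 lay within 1.5 times. The median log2 ratio of NASH to control over the 10 genes was -0.019, beside -0.010 over all genes tested.

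*Cldn5* went from 999 CPM (2386 UMIs) in the control to 629 CPM (1390 UMIs) in NASH cells, which gave a log2 ratio of -0.67 (-0.76 to -0.57) that ranked at the 3.99th percentile of all genes tested. It was lower in both LSEC-like clusters, from 1023 to 599 CPM in cluster 0 (-0.77, -0.89 to -0.65) and from 913 to 681 CPM in cluster 1 (-0.42, -0.60 to -0.25), where the size stayed within 1.5 times. Of all genes tested in these clusters, 11% and 10.9% were past that size. In portal VEC-like cells, which had the same gene at 1181 and 1199.7 CPM, the ratio was 0.02 (-0.27 to 0.32). The interval of the portal ratio did not overlap that of the LSEC-like ratio, and the difference between the classes was not tested because each diet had 1 library.

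*Cdh13* went from 430.3 CPM (1028 UMIs) to 678 CPM (1497 UMIs) in LSEC-like cells, a log2 ratio of 0.66 (0.54 to 0.77) at the 96.5th percentile. It was higher in both clusters, at 0.81 (0.68 to 0.93) in cluster 0 and 0.66 (0.37 to 0.97) in cluster 1. At equal depth its share of cells was 27.5% (24.7 to 30.4) in control cells and 41.2% (38.2 to 44.3) in NASH cells. Venous marker genes were higher in NASH LSEC-like cells as well: of 6 of the 11 with enough UMIs, 5 were past 1.5 times (*Bmp4*, *Edn1*, *Fbln2*, *Gpm6a* and *Lhx6*), and the list summed to 156 CPM in control cells and 307 CPM in NASH cells, against 8034 and 6882 CPM in the central VEC-like class. Their part in the *Cdh13* result was not tested. With only the 847 and 951 LSEC-like cells that held no UMI of 6 immune genes, the ratio of *Cdh13* was 0.50, below 1.5 times.

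*Cd34* was rare in LSEC-like cells, with 129 UMIs (54.0 CPM, 45.1 to 64.2) in control cells and 65 UMIs (29.4 CPM) in NASH cells, which gave a log2 ratio of -0.87 (-1.33 to -0.43) at the 1.69th percentile. At equal depth it was found in 3.6% of control and 2.1% of NASH cells. Cluster 0 had a ratio of -1.14 (-1.77 to -0.57) and cluster 1 of -0.58 (-1.34 to 0.18). *Cd34* was thus not higher in LSEC-like cells of the NASH library under any of the alternatives run, which gave -1.23 to -0.58.

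The remaining genes moved less in LSEC-like cells. *Mcam* was at 249 CPM in control cells and 336 CPM in NASH cells (log2 ratio 0.43, 0.27 to 0.59) and *Icam2* at 165 and 125 CPM (-0.40, -0.63 to -0.18). In cluster 1 alone *Icam2* was at 134 and 74.4 CPM, past 1.5 times at -0.84 (-1.36 to -0.33). *Jam2* had a ratio of -0.29 (-0.38 to -0.21) and *Esam* of 0.17 (0.09 to 0.25). The defining endothelial genes stayed near level, with ratios of 0.12 (0.05 to 0.18) for *Pecam1* and -0.09 (-0.16 to -0.02) for *Cdh5*. *Icam1*, which inflammatory cytokines induce in endothelium, was at 131 and 135 CPM, a ratio of 0.05 (-0.18 to 0.29).

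**Figure D3:**
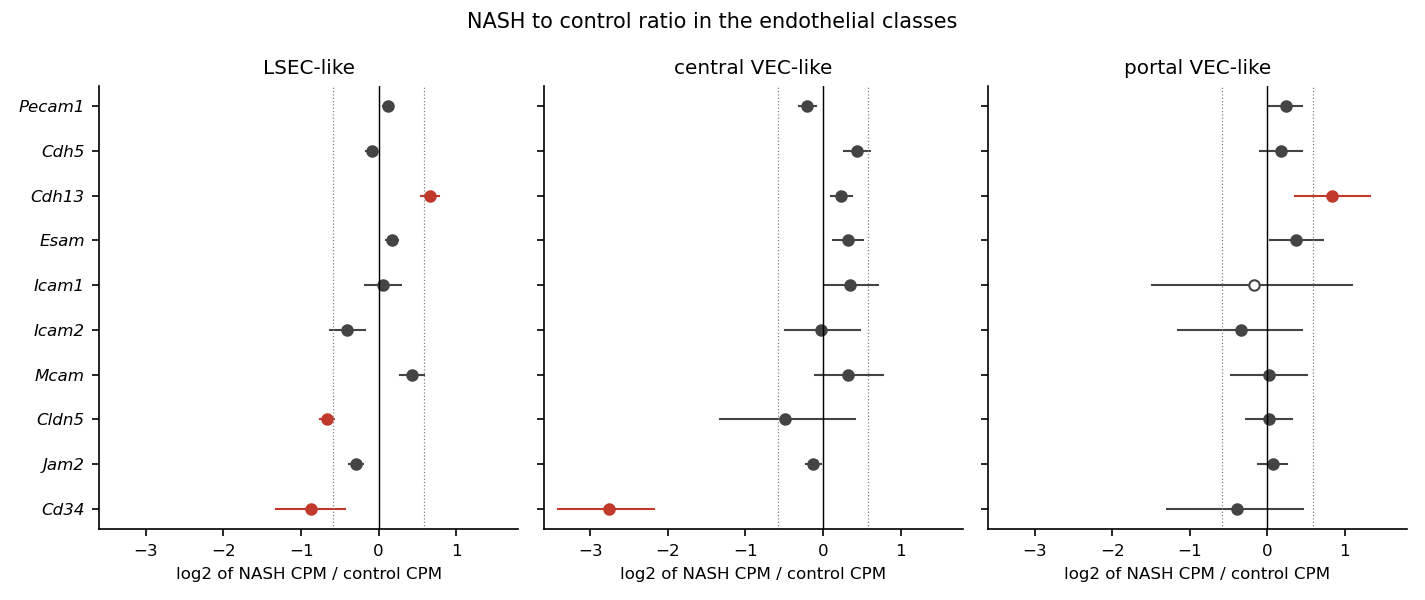
Log2 ratio of NASH to control CPM of the 10 genes in LSEC-like, central VEC-like and portal VEC-like cells, with 95% counting intervals and lines at 1.5 times either way. *Cldn5* lies at -0.67 in LSEC-like and at 0.02 in portal VEC-like cells, and *Cd34* at -2.76 in central VEC-like cells.

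**Figure D4:**
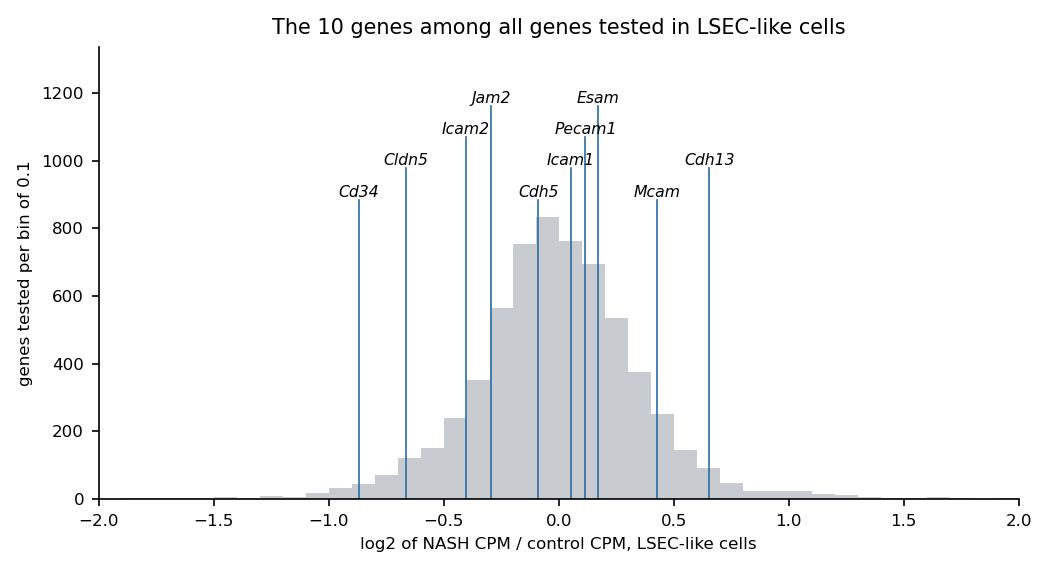
Distribution of the log2 ratio of NASH to control CPM over the 6268 genes tested in LSEC-like cells (genes per bin of 0.1, axis from -2 to 2), with the 10 genes marked by lines. *Cd34*, *Cldn5* and *Cdh13* lie in the tails, at the 1.69th, 3.99th and 96.5th percentile.

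In central VEC-like cells 1 of the 10 genes was past 1.5 times between diets, against 18.8% of 3855 genes tested. This was *Cd34*, at 291 CPM (233 to 358, 88 UMIs in 14 of 82 cells) in control cells and 42.4 CPM (29.0 to 59.9, 32 UMIs in 17 of 252 cells) in NASH cells, which gave a log2 ratio of -2.76 (-3.41 to -2.18). The control value rested on few cells, since 4 cells held 71 of the 88 UMIs. All 4 also held UMIs of *Dcn*, a proteoglycan gene of fibroblasts and stellate cells, or of *Igfbp5*. The 9 control cells with either of these held 85.2% of the *Cd34* UMIs and had *Dcn* at 11015 CPM and *Pecam1* at 865 CPM. The 11 such NASH cells were unlike them, with 37.5% of the *Cd34* UMIs, *Dcn* at 1142 CPM and *Pecam1* at 3736 CPM. Without such cells, 73 control and 241 NASH cells remained, *Cd34* was at 51.6 and 28.1 CPM, and the ratio was -0.90 (-1.96 to 0.25). The stellate cell and fibroblast markers in the whole class summed to 6488 CPM in control cells and 4046 CPM in NASH cells, with 10 of 14 detected in each.

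Other genes of central VEC-like cells moved by less than 1.5 times. *Cdh5* was at 1233 and 1669.7 CPM, a log2 ratio of 0.44 (0.27 to 0.61), and *Icam1* at 304 and 388 CPM, a ratio of 0.35 (0.01 to 0.71). *Esam* and *Mcam* both had 0.32 and *Cdh13* 0.23, whereas *Pecam1* had -0.20 and *Jam2* -0.13. *Cldn5*, from 19 and 34 UMIs, had -0.50 (-1.33 to 0.41), so that a change in these cells was not detectable at this depth. LSEC markers in the class summed to 15266 CPM in control cells and 22353 CPM in NASH cells, and their part in these ratios was not tested. Cells holding *Dcn* or *Igfbp5* entered these ratios too. The 9 such control cells had *Cdh5* at 413 CPM and *Pecam1* at 865 CPM, and the 11 such NASH cells 1642 and 3736 CPM. Leaving them out therefore removed unlike cells from the libraries. Without such cells in either library, *Cdh5* was at 1398 and 1671 CPM and *Pecam1* at 4123 and 3073 CPM, so the sizes of both ratios depended on them.

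In portal VEC-like cells 1 of 9 genes with enough UMIs was past 1.5 times, against 15.2% of 1380 genes tested. *Cdh13* was at 359 CPM (59 UMIs) in control cells and 641 CPM (101 UMIs) in NASH cells, which gave a log2 ratio of 0.83 (0.36 to 1.32). With cells holding *Dcn* or *Igfbp5* left out, 41 of 61 and 35 of 77 cells remained and the ratio was 0.25. *Igfbp5* is itself a listed portal marker, so that this step also removes portal cells. *Cd34* had a ratio of -0.40 (-1.29 to 0.45), *Esam* 0.37 (0.03 to 0.72) and *Pecam1* 0.24 (0.02 to 0.45), and those of *Mcam*, *Cldn5* and *Jam2* lay between 0.02 and 0.07. *Icam1*, with 13 and 11 UMIs, was not tested.

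Partners of these genes were described from a list of 79 other junction and adhesion genes, of which 78 were found. In LSEC-like cells 52 had enough UMIs, and 6 were higher and 3 lower by at least 1.5 times, beside 10.3% of all genes tested, with a median log2 ratio of 0.018 over the list. Among adherens junction partners 1 of 10 was past this size, *Jup*, which encodes plakoglobin, the catenin that binds VE-cadherin (158 and 260.4 CPM, log2 ratio 0.72, 0.53 to 0.91). Among tight junction genes 3 of 10 were, all higher: *Cgnl1*, which encodes paracingulin (48.1 and 82.9 CPM, 0.78), *Amotl2*, which encodes an angiomotin (465 and 751 CPM, 0.69), and the claudin gene *Cldn15*. *Cldn15* went from 5 UMIs (2.09 CPM) to 63 UMIs (28.5 CPM), a ratio of 3.64 (2.47 to 5.44), opposite to *Cldn5*. These genes were also higher in control central VEC-like than in control LSEC-like cells, *Cldn15* by 75.4-fold, *Cgnl1* by 7.55-fold, *Jup* by 1.97-fold and *Amotl2* by 1.47-fold. The part of the higher venous markers of NASH LSEC-like cells, which summed to 156 CPM in control cells and 307 CPM in NASH cells, was not tested for these partners.

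Among other surface genes of LSEC-like cells, *Plvap*, which encodes the protein of fenestral and caveolar diaphragms, was at 366 and 758 CPM (log2 ratio 1.05, 0.93 to 1.17). The part of the higher venous markers of NASH LSEC-like cells in this ratio was not tested either. *Podxl*, a sialomucin related to CD34, was at 334 and 169 CPM (-0.98, -1.17 to -0.81), and *Ezr*, the ezrin that links such sialomucins to actin, at 49.0 and 22.2 CPM (-1.13, -1.65 to -0.65). *Podxl* and *Ezr* were thus lower along with *Cd34*. The integrin gene *Itgb3* was higher (192 and 306 CPM, 0.67) and *Itga4* lower, from 56 and 34 UMIs (-0.60, -1.27 to 0.03), a size that was lost without cells holding immune gene UMIs (0.01).

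In central VEC-like cells 46 listed genes had enough UMIs, and 3 were higher and 5 lower by at least 1.5 times, beside 18.8% of all genes tested (median -0.008, all genes 0.006). *Clec14a*, an endothelial lectin gene, was at 909 and 1474 CPM (log2 ratio 0.70, 0.51 to 0.89), and *Podxl* at 347 and 203 CPM (-0.78). The gap junction gene *Gja4* was at 354 and 167 CPM (-1.08, -1.47 to -0.70) and kept this direction in all alternatives run. *Ptprm* (0.78), *Itgb3* (0.63), *Alcam* (-1.13), *Cldn15* (-1.32) and *Ezr* (-2.24) were the others. Without cells that held *Dcn* or *Igfbp5*, the ratio of *Ezr* was -0.52 and that of *Cldn15* 0.24, so that 2 of the 5 lower genes shared this limit with *Cd34*.

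In portal VEC-like cells 29 listed genes had enough UMIs, with 1 higher and 3 lower by 1.5 times, beside 15.2% of all genes tested (median -0.013, all genes -0.021). Both connexin genes of arterial endothelium were among the lower ones, *Gja4* at 578 and 298 CPM (log2 ratio -0.95, -1.49 to -0.44) and *Gja5* at 414 and 216 CPM (-0.93, -1.58 to -0.33). *Actn1* was at 207 and 114 CPM (-0.84, -1.77 to 0.01) and *Itgb3* at 146 and 273 CPM (0.89, 0.15 to 1.69). *Itgb3* was therefore past 1.5 times and higher in NASH cells of all 3 endothelial classes (central 0.63, -0.12 to 1.52), all from the same pair of libraries.

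Leukocytes can hold endothelial transcripts that were carried over from lysed or attached cells. The level this would give was estimated per class and library as the LSEC-like level of a gene times the median, over 15 endothelial reference genes such as *Kdr* and *Clec4g*, of the level in the leukocyte class relative to LSEC-like cells. The estimate was 1.10% to 6.79% of the LSEC-like level in control classes and 2.85% to 7.68% in NASH classes, and in Kupffer cell-like cells it was 2.76% in control cells and 4.37% in NASH cells. Over 9 leukocyte classes, 28 of 90 combinations of gene and class lay above this estimate, by their counting interval, in both libraries. Most of the 4460 genes at least as high in LSEC-like cells as the lowest of the 10 did so. In Kupffer cell-like cells 91.8% of them lay above it and 4 of the 10 did, in monocyte and macrophage-like cells 89.8% and 4, and in neutrophil-like cells 65.7% and 2. In cDC-like (88.7%), pDC-like (74.6%), B cell-like (82.4%), T cell-like (84.7%), NK and ILC1-like (79.8%) and plasma cell-like cells (41.6%, with 6 NASH cells) 3 of the 10 did. The share of the 10 was thus below that of all such genes in every class.

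Kupffer cells, the macrophages of the sinusoid, carried *Cdh5* well above the estimate. It was at 911 CPM (878 to 945) in 494 control and 775 CPM (740 to 811) in 478 NASH Kupffer cell-like cells, against 41.0 and 60.9 CPM estimated as carry-over. It was found in 89.1% and 84.3% of these cells, and in 56.1% and 50.5% at 1000 UMIs. *Pecam1* was above the estimate in the same cells too, at 266 and 290.1 CPM against 42.4 and 72.8. *Icam1* (176 and 148 CPM against 3.6 and 5.9) and *Icam2* (24.4 and 21.2 CPM against 4.6 and 5.4) were above it as well, and the other 6 genes were not. Of these, *Esam* stood at 15.9 and 46.7 CPM against 28.1 and 50.04, and *Cdh13* at 12.1 and 31.0 CPM against 11.9 and 29.6. pDC-like (plasmacytoid dendritic) cells, 55 and 25 in number, also held *Cdh5*, at 239.6 CPM (172 to 325) and 366 CPM (245 to 525) against 16.3 and 67.6.

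*Pecam1* stood above the estimate in 8 of the 9 leukocyte classes, neutrophil-like cells being the exception. Its highest leukocyte level was in B cell-like cells, at 549 and 522 CPM against 104 and 114 CPM, and it was at 316 and 303 CPM in pDC-like, 263 and 188 CPM in T cell-like and 198 and 278 CPM in NK and ILC1-like cells. *Icam2* was above it in 5 classes and also highest in B cell-like cells, at 108 and 86.4 CPM against 11.2 and 8.5.

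*Icam1* stood above the estimate in all 9 classes. In NK and ILC1-like cells it was at 446 CPM (359 to 549) and 294 CPM (207 to 406), more than in LSEC-like cells of either library. The highest level was in a small neutrophil-like cluster led by *Acod1*, a gene of activated myeloid cells, with 15 control and 48 NASH cells at 2771 CPM (76 UMIs) and 1299 CPM (108 UMIs), whereas the *Ly6g*-led neutrophil-like cluster of 439 and 71 cells was at 30.7 and 59.3 CPM. The clusters differed within both libraries without overlap of their intervals.

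*Cd34* was found in cDC-like cells, at 153 CPM (81 UMIs in 32 of 100 cells) and 236 CPM (128 UMIs in 44 of 113 cells), where the carry-over estimate was 1.0 and 0.8 CPM. It also stood at 243 and 99.3 CPM in a macrophage-like cluster led by *Mmp13* and *Cx3cr1*, in 13 of 30 and 19 of 93 cells. In neutrophil-like cells the 27 control UMIs came from 4 of 454 cells.

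**Figure D5:**
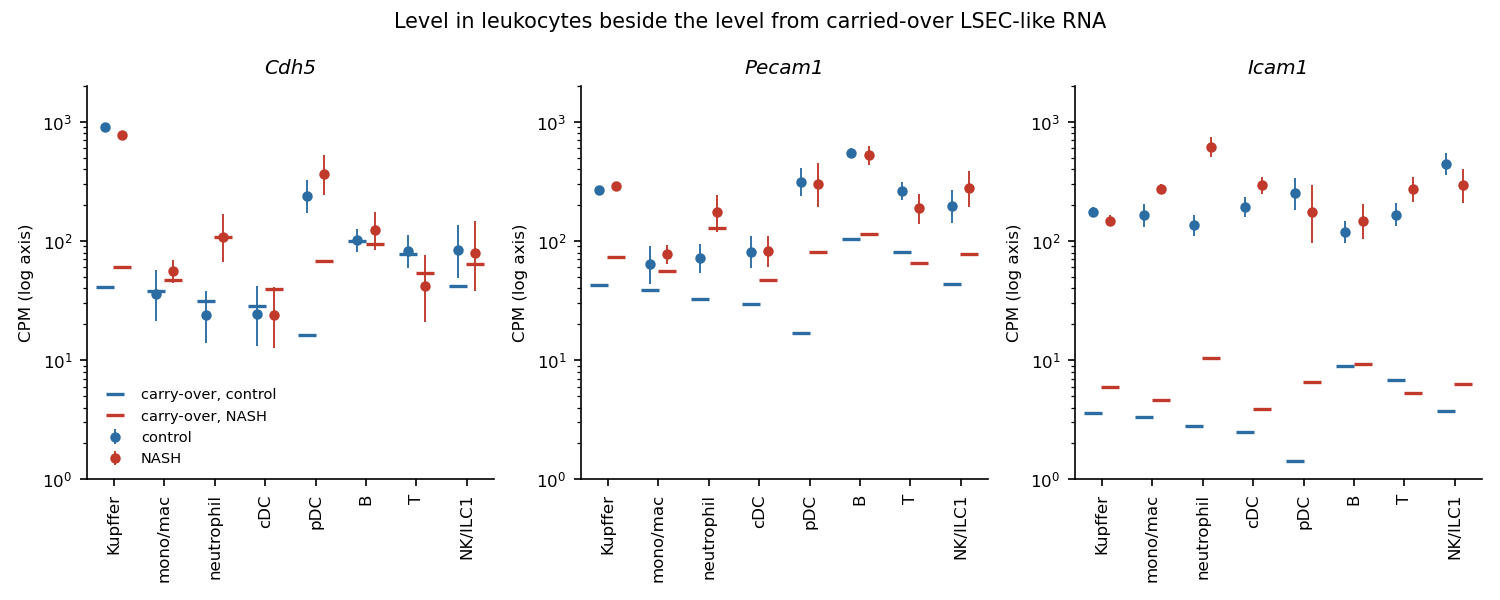
Level of *Cdh5*, *Pecam1* and *Icam1* (CPM, log axis) in leukocyte classes of the control and NASH library, beside the level that carried-over LSEC-like RNA would give. *Cdh5* in Kupffer cell-like cells, at 911 and 775 CPM, lies far above its estimates of 41.0 and 60.9 CPM.

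Between diets, 19 of the 34 combinations of gene and leukocyte class with at least 50 UMIs lay past 1.5 times, where the share of all genes ran from 8.79% in Kupffer cell-like to 39.0% in neutrophil-like cells. Endothelial reference genes moved too. Of those tested, 11 of 11 were past this size in neutrophil-like, 8 of 14 in Kupffer cell-like and 5 of 12 in monocyte and macrophage-like cells. In B cell-like cells 5 of 12 were, in T cell-like 5 of 10 and in cDC-like 4 of 9. In NK and ILC1-like cells 3 of 3 were and in pDC-like cells 1 of 1. The part of carry-over in the 19 was not tested. *Icam1* was higher in NASH monocyte and macrophage-like cells (164 and 273 CPM, log2 ratio 0.73, 0.39 to 1.09), in T cell-like cells (167 and 273 CPM, 0.71, 0.23 to 1.18) and in cDC-like cells (195 and 293 CPM, 0.59, 0.22 to 0.96). Without cells holding UMIs of the endothelial reference genes, the ratio in T cell-like cells was -0.060 (-1.28 to 0.91). The share of all genes past 1.5 times in these classes was 26.4%, 16.1% and 12.9%, and it was 15.9% in pDC-like and 14.1% in B cell-like cells. In NK and ILC1-like cells *Icam1* was lower, from 446 to 294 CPM (-0.59, -1.19 to -0.03, beside 14.8% of all genes). Joined neutrophil-like cells went from 136 to 619 CPM (2.18), but the *Acod1*-led cluster made up 15 of 454 control and 48 of 119 NASH cells, and within that cluster the ratio was -1.10 (-1.53 to -0.65), where 57.3% of 412 genes were past 1.5 times. In the *F13a1*-led monocyte-like cluster the ratio was 0.76, beside 32.7% of genes.

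In Kupffer cell-like cells *Cdh13* (12.1 and 31.0 CPM, log2 ratio 1.35), *Esam* (15.9 and 46.7 CPM, 1.55) and *Jam2* (21.9 and 38.2 CPM, 0.80) were past 1.5 times, while the estimate went from 2.76% to 4.37% of the LSEC-like level and the genes lay below it or within their counting interval of it. The part of carry-over in these ratios was not tested. *Cdh5*, far above it, had a ratio of -0.23 (-0.32 to -0.15) in these cells. *Cd34* was higher in cDC-like cells of the NASH library (0.62, 0.21 to 1.04) and lower in the macrophage-like cluster (-1.30, -2.04 to -0.52, beside 23.8% of genes).

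The genes whose levels across classes were most like those of the 10 genes were mostly endothelial too. Over 27 values, the named classes of each library, Pearson's r of log2(CPM + 10) was highest with *Heg1* for *Pecam1* (0.91), *Dysf* for *Cdh5* (0.92), *Jam2* for *Cdh13* (0.97), *Gata4* for *Esam* (0.98), *Esam* for *Mcam* (0.94), *Adam23* for *Cldn5* (0.94), *AU021092* for *Jam2* (0.98), *Pabpc4l* for *Icam2* (0.84) and *Nav1* for *Cd34* (0.85). *Icam1* had no gene above 0.73 (*Impact*). The values share libraries and depth, and these correlations are a description over 8856 genes.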

How the data were processed

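The deposited tables hold UMI counts per gene and cell, made by the authors with the BD Rhapsody pipeline and GRCm38 and not normalized. The labels' protocol and the paper name BD Rhapsody, whereas a description field names another platform. The 16383 genes run alphabetically to *Rad54l2*. *Stab2*, *Vwf*, *Selp*, *Vcam1* and mitochondrial genes were not analysed here, so the paper's 5% mitochondrial limit was not applied. Totals were 11452972 control and 9326723 NASH UMIs. The members and gene lists were chosen with earlier results of these data known.

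Cells were clustered in Seurat 5.3.0 (R 4.3.3) with the paper's settings, as log normalization to 10000 UMIs, 2000 variable genes, scaling on UMIs, 50 components and resolution 0.6, without the members and 78 listed genes. Clusters were named by marker lists, and Scrublet in scanpy 1.11.5 marked doublets. UMIs were summed per class and library in CPM with exact Poisson intervals, shares carry exact binomial intervals, and log2 ratios add 0.5 UMI to each sum and carry an exact binomial interval. All intervals cover counting error only. With 1 library per diet there is no test and no p-value. A gene was counted as changed at 1.5 times or more with at least 50 UMIs. Genes named are the 10 members, listed genes past 1.5 times (up to 4 per role), the most alike genes per member and leading markers. Scripts were tested on simulated data (Python 3.11.15, numpy 2.4.6, scipy 1.17.1, pandas 2.3.3). Gene positions are from GENCODE M21 and promoters from RefSeq.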

Additional observations from a re-analysis of the deposited data

Results flagged for a closer look

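*Cd34* lay past 1.5 times in opposite directions in 2 cell classes, with a log2 ratio of NASH to control of -2.76 (-3.41 to -2.18, 88 and 32 UMIs) in central VEC-like cells and 0.62 (0.21 to 1.04, 81 and 128 UMIs) in cDC-like cells. In the central class 4 control cells held 71 of the 88 UMIs, and without cells holding *Dcn* or *Igfbp5* the ratio of *Cd34* was -0.90 (-1.96 to 0.25), with too few UMIs for a call. *Icam1* did so within myeloid cells, at -1.10 (-1.53 to -0.65, 76 and 108 UMIs) in the *Acod1*-led neutrophil-like cluster and 0.76 (0.39 to 1.15, 72 and 349 UMIs) in the *F13a1*-led monocyte-like cluster. Each diet had 1 library, so neither difference between classes was tested.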

How the results depend on the processing

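No paired analysis was possible because each diet had 1 library. In LSEC-like cells 2 or 3 of the 10 genes and 7 to 12 of the listed partners were past 1.5 times under every setting run. The genes behind these counts were not always the same. In LSEC-like cluster 1 alone they were *Cdh13* and *Icam2*, with *Cldn5* and *Cd34* within 1.5 times. Without cells holding immune gene UMIs, *Cdh13* was within 1.5 times. Leaving out cells with immune gene UMIs or with *Dcn* or *Igfbp5* UMIs, or with endothelial reference UMIs for leukocytes, and using each LSEC-like cluster alone, were chosen after seeing the data.

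In central VEC-like cells the count of the 10 genes, 1, was 2 at resolution 0.4 and at resolution 1.0 and 0 without cells holding immune gene UMIs or without cells holding *Dcn* or *Igfbp5*. The count of partners there, 8, was 5 when all genes entered the clustering and 4 without immune gene UMIs. In portal VEC-like cells the count of the 10 genes, 1, was 2 with all genes in the clustering and 0 without *Dcn* or *Igfbp5*, and that of partners, 4, was 8 at 20 UMIs, 2 at 100 UMIs and 8 at resolution 1.0, which put a cluster of 606 cells into this class. In leukocytes 19 of 34 became 32 of 56 at 20 UMIs, 10 of 21 at 100 UMIs, 12 of 34 for the mean over cells and 2 of 6 without cells holding endothelial reference UMIs, where the 28 combinations above carry-over became 14. The 4 genes with shares apart at equal depth were 7 without thinning.

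In central VEC-like cells the sign of *Cldn15* turned with all genes in the clustering (0.51), without immune gene UMIs (0.32) and without *Dcn* or *Igfbp5* (0.24), and without immune gene UMIs so did those of *Alcam* (0.28) and *Ezr* (0.40). *Itga4* in LSEC-like cells turned to 0.011 there. In leukocytes without endothelial reference UMIs *Jam2* turned in Kupffer cell-like (-0.71), monocyte and macrophage-like (-0.21) and B cell-like cells (-0.41), *Cldn5* in B cell-like cells (1.53), and *Cdh5* (2.62) and *Icam1* (-0.060) in T cell-like cells. Without doublets called by Scrublet, *Cldn5* in B cell-like cells was 0.037 and *Cdh5* in T cell-like cells 0.72, and with all genes in the clustering the latter was 0.31. The called doublets were 52 control and 3 NASH cells of all classes, so leaving them out fell almost only on the control. *Cdh5* in T cell-like cells had 41 control and 11 NASH UMIs in the main setting. Of 1363 values of single genes under alternatives, 15 had turned sign in a gene past 1.5 times in the main setting. Of the others, 1247 lay within the counting interval of the main value and 101 outside it. Turns of sign in genes not past 1.5 times were not counted apart. The VEC-like classes held 61 to 252 cells per library, which limits the precision of their values. The causes of these shifts were not tested.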
